A study of Rattus norvegicus with 10 samples.

Results

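The genes described here encode the subunits of heterotrimeric G proteins and the regulators of G protein signalling (RGS proteins). Members were the genes whose probe sets carried 1 annotated symbol that began with Rgs, Gnb or Gng followed by a digit, or that was among a fixed set of Gna genes, without Rgs5, Rgs9 and Gng7. The probe set of highest mean stood for each gene. This gave 39 genes of the 14217 with a symbol of their own. The letter of the rule also took in Rgs7bp, which encodes a membrane anchor of RGS proteins, and Gnb1l, which encodes a beta-like repeat protein. For Gnai3 and Gna13, which the rule also names, no probe set with 1 symbol was found and no value is given.

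RNA came from the prefrontal cortex of 10 male Lewis rats, an inbred strain, with 1 array per rat. None was treated, so all formed 1 group, and every rat had 4 behaviour scores: for its startle to a loud sound, for locomotion, for sugar feeding and for prepulse inhibition, the weakening of a startle by a softer sound before it. A plus maze score was given for 7 rats, and no score had a stated unit. The 10 rats came from 40 tested for behaviour and were killed 6 days after the last test. The tissue was whole dissected cortex, so fewer cells of a type and less RNA per cell cannot be told apart in any value below. Of 6 listed markers of cortical excitatory neurons, 5 passed the filter on low values, and their score ran from -0.23 log2 in rat 7 to 0.21 in rat 6.

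A receptor that couples to G proteins loads the alpha subunit with GTP, and alpha and the beta-gamma pair then act on enzymes and channels. RGS proteins speed the hydrolysis of that GTP and so shorten the signal. In the cortex these steps lie behind dopamine, serotonin, muscarinic, opioid and metabotropic glutamate receptors. RGS genes fall into families: R4 holds small regulators such as Rgs2 and Rgs4, R7 binds Gnb5 in place of a gamma subunit, RZ holds Rgs17 and Rgs19, and R12 holds Rgs10, Rgs12 and Rgs14.

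Upstream sequence is shown for the 4 genes on which the results below turn: Rgs4 and Gnao1, whose levels varied together, and Gna12 and Rgs10, which passed the threshold along the myelin markers. Each is the 250 bases before the annotated start, 5′ to 3′ on the gene's strand, from RefSeq (GRCr8), and 33 of the 39 members had such an entry under their symbol. Capitals mark matches to 4 motifs, searched on both strands with overlapping matches each counted. The GC box was searched as GGGCGG and the TATA box as TATAAA. The CCAAT box was searched by the letters of its name, and the core of a cAMP response element as TGACG.
Rgs4, chr13:84475885-84476134, minus strand: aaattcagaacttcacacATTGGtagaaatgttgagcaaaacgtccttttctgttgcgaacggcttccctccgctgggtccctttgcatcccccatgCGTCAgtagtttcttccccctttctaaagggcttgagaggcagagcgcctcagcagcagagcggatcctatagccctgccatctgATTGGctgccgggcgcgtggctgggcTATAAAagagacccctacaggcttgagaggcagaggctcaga
Gnao1, chr19:11198438-11198687, minus strand: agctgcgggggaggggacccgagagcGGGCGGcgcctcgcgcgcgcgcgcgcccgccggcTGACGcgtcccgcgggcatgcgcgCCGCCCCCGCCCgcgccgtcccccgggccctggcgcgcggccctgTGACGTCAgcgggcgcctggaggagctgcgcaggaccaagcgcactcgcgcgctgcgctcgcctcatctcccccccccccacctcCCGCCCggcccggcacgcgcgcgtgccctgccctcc
Gna12, chr12:18919379-18919628, plus strand: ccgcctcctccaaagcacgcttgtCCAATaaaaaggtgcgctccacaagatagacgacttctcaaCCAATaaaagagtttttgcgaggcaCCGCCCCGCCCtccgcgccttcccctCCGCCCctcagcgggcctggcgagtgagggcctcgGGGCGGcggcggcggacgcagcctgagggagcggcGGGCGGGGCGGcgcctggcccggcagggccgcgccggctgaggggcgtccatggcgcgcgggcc
Rgs10, chr1:192418078-192418327, minus strand: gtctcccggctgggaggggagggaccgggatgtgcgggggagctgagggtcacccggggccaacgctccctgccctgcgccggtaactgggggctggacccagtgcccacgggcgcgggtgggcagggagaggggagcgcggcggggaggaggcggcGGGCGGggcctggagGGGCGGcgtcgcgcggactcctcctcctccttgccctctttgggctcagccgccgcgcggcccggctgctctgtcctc
The Rgs4 window held 1 TATA box, 42 bases before the start, 2 CCAAT boxes and 1 cAMP response element core. The Gnao1 window held 4 GC boxes and 3 such cores, of which 2 overlap in a full palindromic element (TGACGTCA) 121 bases before the start. The Gna12 window held 6 GC boxes and 2 CCAAT boxes, and that of Rgs10 held 2 GC boxes. Of 33469 windows of the same length, 30.5% held a GC box, 12.9% a TATA box, 34.0% a CCAAT box, 18.2% a cAMP response element core and 1.59% the full element. GC made up 54.4% of the Rgs4 window, 83.6% of that of Gnao1, 72.0% of that of Gna12 and 77.6% of that of Rgs10, against a median of 51.2%. Rgs4 and Gnao1 thus shared the cAMP response element core and no other searched motif.

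Of the 39 members, 30 had a probe set in the upper 50% by mean (a mean log2 of at least 3.985). These were 8 of 9 alpha genes, 4 of 6 beta genes, 6 of 8 gamma genes, 4 of 7 R4 genes, all 3 R7 genes (Rgs7bp counted with them), both RZ genes and all 3 R12 genes. Below the filter lay Gna14, Gnb3, Gnb1l, Gng8, Gng11, Rgs1, Rgs16, Rgs18 and Rgs22. A span is given below as the highest rat over the lowest. The median span of the 30 members was 1.33-fold, against 1.35-fold over all 15521 probe sets past the filter, and 36.7% of members against 40.2% of all probe sets spanned more than 0.5 log2. Members are 1 probe set per gene, and over the 8483 genes past the filter, taken the same way, the median span was 1.32-fold and 31.8% spanned more than 0.5 log2.

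Among the alpha genes, Gnaq, whose product activates phospholipase C beta, spanned most at 1.98-fold. It ran from 8.84 log2 in rat 7 over a median of 9.32 to 9.83 in rat 6 (mean 9.36 ± 0.35, SD, n = 10), and rats 4 and 10 followed at 9.79 and 9.72. Its close relative Gna11 spanned 1.25-fold (5.55 to 5.88 log2). Gnai1, of the family that inhibits adenylyl cyclase, spanned 1.53-fold, from 10.70 in rat 7 over a median of 10.99 to 11.31 in rat 4. Gnai2 and Gnaz, of the same family, spanned 1.22-fold each. Gnao1, which encodes the abundant neuronal Go alpha, spanned 1.34-fold, from 12.03 in rat 7 over a median of 12.26 to 12.45 in rat 2. Rat 7 was thus the lowest for Gnaq, Gnai1 and Gnao1. Gnas, which encodes the stimulatory Gs alpha, spanned 1.17-fold, from 13.866 in rat 7, with rat 3 at 13.87, to 14.09 in rat 2. Gna12, of the G12 family of alpha genes, spanned 1.49-fold, from 10.52 in rat 3 over a median of 10.85 to 11.10 in rat 7. It was thus highest in the rat where Gnaq, Gnai1, Gnao1 and Gnas were lowest.

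Beta genes spanned 1.31-fold to 1.47-fold. Gnb4 ran from 7.22 log2 in rat 9 over a median of 7.35 to 7.77 in rat 4, with rat 6 at 7.72 and every other rat at 7.50 or less. Gnb5, the partner of the R7 regulators, ran from 10.06 in rat 5 over a median of 10.38 to 10.51 in rat 1. Gnb1 spanned 1.32-fold and Gnb2 1.31-fold, both with rat 6 highest, at 14.50 and 11.66. Of the gamma genes, Gng2 spanned 1.77-fold, from 9.47 in rat 3 over a median of 9.97 to 10.30 in rat 4, while its other probe set spanned 1.12-fold. Gng12 spanned 1.75-fold, from 8.15 in rat 3 over a median of 8.65 to 8.96 in rat 6, and its other probe set 1.54-fold. Rat 3 was the lowest for both. The other 4 gamma genes past the filter spanned 1.20-fold (Gng3), 1.22-fold (Gng13), 1.27-fold (Gng10) and 1.38-fold (Gng5).

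Within the RGS genes, Rgs8 spanned 1.72-fold and Rgs10 1.60-fold. Rgs8 ran from 4.63 log2 in rat 1 over a median of 4.98 to 5.41 in rat 4, with rat 7 next at 5.21. Rgs10 ran from 10.03 in rat 3 over a median of 10.26 to 10.70 in rat 7, and the next rats, 4 and 8, were both at 10.37. Rgs4, a cortical regulator of Gi and Gq signalling, spanned 1.39-fold, from 12.26 in rat 7 over a median of 12.47 to 12.74 in rat 2. Rgs2, which acts on Gq, spanned 1.28-fold, from 9.77 in rat 5 to 10.12 in rat 4. The R7 genes Rgs6 and Rgs7 spanned 1.46-fold and 1.23-fold, and Rgs7bp 1.42-fold, each highest in rat 2. Rgs12 spanned 1.42-fold, with rats 1 and 9 low at 7.38 and 7.45 and all others between 7.72 and 7.89. Of the RGS genes past the filter, Rgs17, Rgs19, Rgs14 and Rgs3 varied least at the probe set of highest mean, at 1.19-fold, 1.17-fold, 1.09-fold and 1.03-fold. Other Rgs17 probe sets spanned 1.18-fold to 2.23-fold. Rgs3 stayed between 6.06 and 6.11 log2 in all rats, and its 2 other probe sets lay below the filter.

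Rats differed in how many members lay above the members' own means. Rat 6 had 28 of 30 above, against 63.6% of all probe sets, rat 4 had 24 of 30 against 57.1%, and rat 2 had 21 of 30 against 62.7%. Rat 3 had 2 of 30 above, against 26.3% of all probe sets, and rats 5 and 9 had 8 each, against 39.3% and 43.2%. The array medians over tested probe sets were 8.25, 8.22 and 8.22 in rats 2, 4 and 6, 8.12 in rats 3 and 5, and 8.17 in rat 9, which lay above rats 7, 8 and 10 (8.15 to 8.16). Over all probe sets the medians did not follow this order, with rat 5 at 4.02 and rats 2, 4 and 6 at 3.97, 3.95 and 3.97. The part of the array level in the members' counts was not tested.

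**Figure D1:**
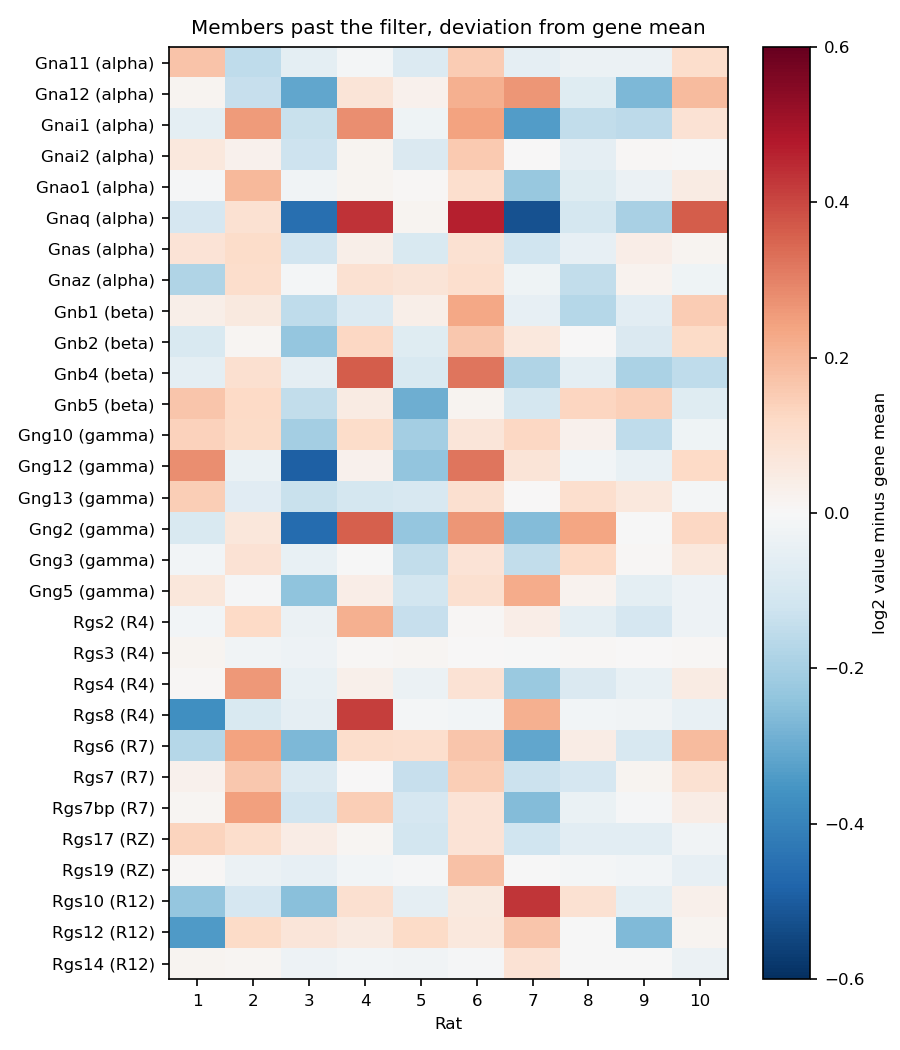
Each cell is the log2 value of a member in a rat minus that gene's mean over 10 rats, on a colour scale from -0.6 (blue) to 0.6 (red). Rows are the 30 members past the filter by class, columns are rats. Rat 6 is above the mean in 28 of 30 rows and rat 3 in 2 of 30.

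For comparison across rats 6 pairs of genes were set, and 5 could be measured. Their products bind or act on each other, except that Rgs2 and Rgs4 were paired as regulators of the same R4 family. Rgs4 and Gnao1 varied together, with Pearson r = 0.98 (permutation p = 2e-05, adjusted p = 1e-04 over 5 pairs) and Spearman rho = 0.98 (permutation p = 4e-05, adjusted p = 2e-04), both two-sided, n = 10. Rat 2 was the highest and rat 7 the lowest for both genes. The score of cortical excitatory neurons was also lowest in rat 7, at -0.23, and was highest in rat 6, at 0.21, with rat 2 next at 0.10, and its part in the relation was not tested. Other members also had a high r with Rgs4, namely Rgs7bp (0.92), Gnai1 (0.86) and Rgs7 (0.84), given as a description with no test. Quantile normalization of all 10 arrays lowered these r to 0.84 for Rgs7bp, 0.74 for Gnai1 and 0.65 for Rgs7. Probe sets outside the members also had a high r with Rgs4, such as that of Epm2aip1 (0.97). The share of all probe sets with an r as high as that of Rgs7bp, Gnai1 or Rgs7 was not counted. Without rats 2 and 7, the farthest from the Rgs4 median, the r of Rgs4 and Gnao1 was 0.95 (permutation p = 3e-04, adjusted p = 0.0015). After quantile normalization of all 10 arrays it was 0.95 (permutation adjusted p = 0.00075). The other Rgs4 probe set had r = 0.86 with Gnao1 and also 0.86 with the first Rgs4 probe set, with no test. The first Rgs4 probe set thus had a higher r with Gnao1 than with the other reading of Rgs4. Of 15519 probe sets that passed the filter and were not Rgs4, 2 (0.0129%), Gnao1 included, had an r with Rgs4 at least that of Gnao1. The other probe set was of Rraga, which encodes a GTPase of nutrient sensing.

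Rgs7 and its partner Gnb5 had r = 0.50 (permutation p = 0.138, adjusted p = 0.344) and rho = 0.46 (permutation p = 0.194, adjusted p = 0.361). That r was 0.20 without rats 2 and 5 and -0.02 after quantile normalization. Rgs2 with Rgs4, Rgs2 with Gnaq and Gng2 with Gnb1 had r of 0.28 to 0.37 and rho of 0.16 to 0.43, with adjusted permutation p of at least 0.385 for r and 0.361 for rho. Without the 2 farthest rats these r were -0.15 to 0.24.

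Slopes on the behaviour scores asked which members vary with behaviour among genetically alike animals. Each slope gives the change in log2 value for a score higher by 1 SD, from limma on all 15521 probe sets, with Benjamini-Hochberg adjustment over them. No member passed an adjusted p of 0.05 for any score: 0 of 30 for startle, locomotion, sugar feeding, prepulse inhibition and plus maze, where 0% of all probe sets passed for each. Limma with trend and robust options also gave 0.

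**Figure D2:**
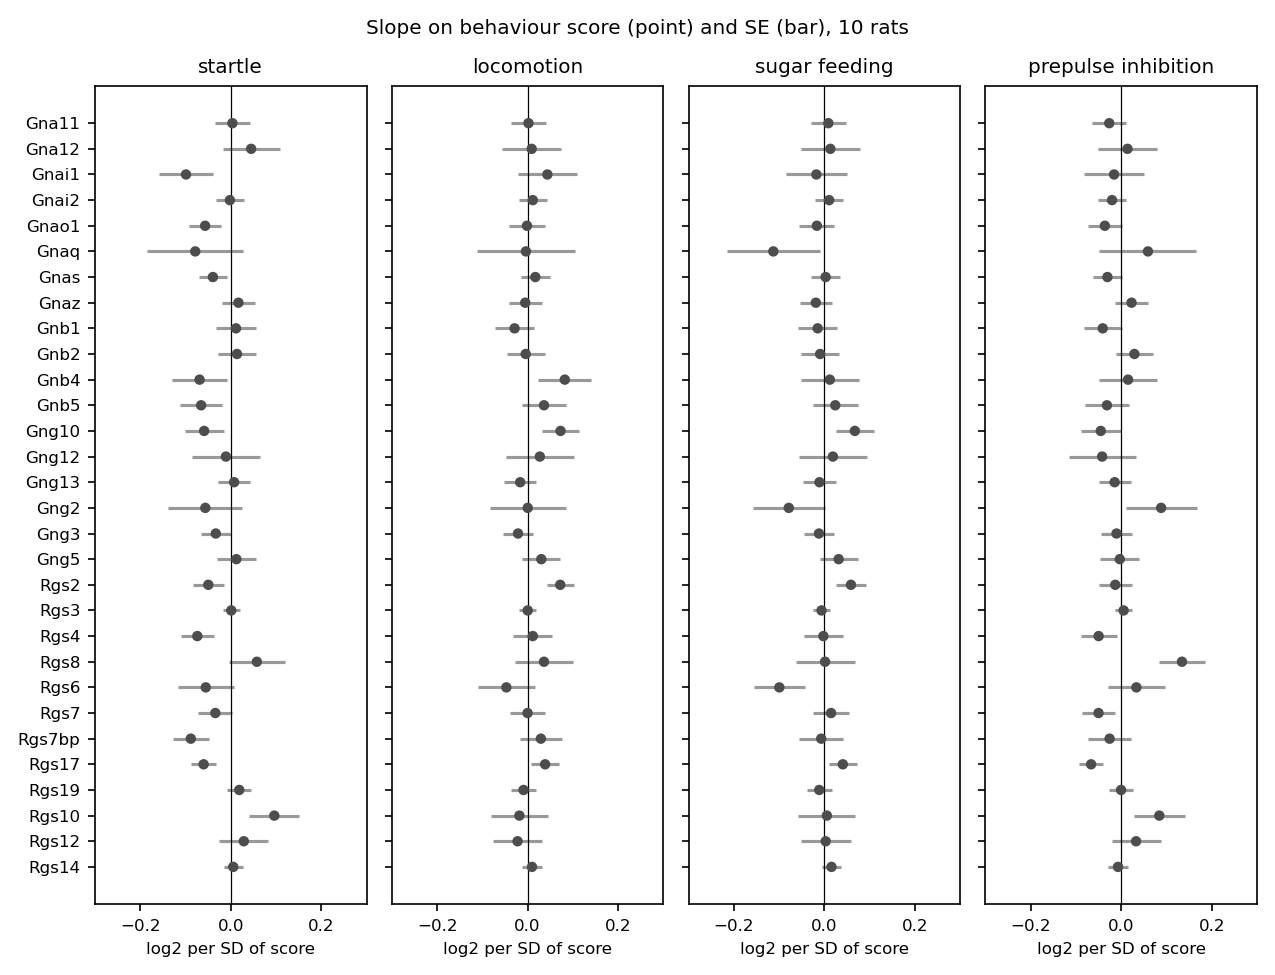
Points are slopes in log2 per SD of the score and bars are 1 SE from limma, n = 10 rats, for 30 members (rows) and 4 behaviour scores (panels). All slopes lie between -0.11 and 0.13, and none had an adjusted p under 0.05.

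For startle, 1 of 30 members (3.33%) had an unadjusted p under 0.05, against 5.59% of all probe sets. It was Rgs7bp, whose product anchors R7 regulators at the membrane, with -0.09 ± 0.04 (SE, n = 10; limma p = 0.0474, adjusted p = 0.808). Rgs7bp was at 11.15 and 11.39 log2 in rats 1 and 2, of lowest startle, and at 10.88 and 11.14 in rats 7 and 9, of highest startle. Without rats 1 and 2 the slope was -0.06. Rgs17, an RZ regulator, had -0.06 ± 0.03 (limma p = 0.0539), Rgs4 -0.07 ± 0.04 (limma p = 0.0665) and Gnao1 -0.06 ± 0.03 (limma p = 0.132). At its other probe set Rgs4 had -0.03 (limma p = 0.463). On the positive side stood Rgs10 at 0.10 ± 0.06 (limma p = 0.111) and Rgs8 at 0.06 ± 0.06, which was -0.06 without rats 1 and 2. In all, 13 members had positive and 17 negative slopes (median -0.02), against 37.7% positive among all probe sets (median -0.02), and after quantile normalization 16 were positive, against 56.6% of all.

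For locomotion, 1 of 30 members (3.33%) had an unadjusted p under 0.05, against 2.93% of all probe sets. This was Rgs2, with 0.07 ± 0.03 (SE, n = 10; limma p = 0.0350, adjusted p = 1.00), and its other probe set had 0.08 (limma p = 0.0496). Rgs2 was highest at 10.12 log2 in rat 4, which moved most, and at 9.89 in rat 1, which moved nearly as much. The other 8 rats lay between 9.77 and 10.03. Without rats 1 and 4 the slope was 0.05, and with the 4 scores in 1 model it was 0.01. Gng10, a broadly expressed gamma gene, had 0.07 ± 0.04 (limma p = 0.105). Rgs6 had -0.05 ± 0.06, and Gnb1 -0.03 ± 0.04, with 2 other Gnb1 probe sets at 0.13 and 0.02. Positive slopes were found in 18 of 30 members, against 65.4% of all probe sets, and after quantile normalization in 10 of 30 members, against 46% of all.

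For sugar feeding, 0 of 30 members had an unadjusted p under 0.05 by limma, against 2.13% of all probe sets. Rgs2 had 0.06 ± 0.03 (SE, n = 10; limma p = 0.101) and Gng10 0.07 ± 0.04 (limma p = 0.139), the same members that led for locomotion in these same rats. At its other probe set Rgs2 had 0.02 (limma p = 0.609). Rgs6 had -0.10 ± 0.06 (limma p = 0.105) and Gnaq -0.11 ± 0.10 (limma p = 0.30). Slopes were positive in 16 of 30 members, against 58.4% of all probe sets, and after quantile normalization in 9 of 30 members, against 47.4% of all.

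For prepulse inhibition, 2 of 30 members (6.67%) had an unadjusted p under 0.05, against 7.41% of all probe sets. Rgs8, an R4 regulator, had 0.13 ± 0.05 (SE, n = 10; limma p = 0.0218, adjusted p = 0.630). It was lowest in rat 1, which had the lowest prepulse inhibition, and highest in rat 4, which had the highest. Without those 2 rats the slope was 0.02, and the 8 others lay between 4.90 and 5.21 log2. Rgs17 had -0.07 ± 0.03 (limma p = 0.0281, adjusted p = 0.630). Its slope was -0.07 without rats 1 and 4, and -0.03 after quantile normalization. Rgs17 stood at 11.26, 11.23 and 11.17 log2 in rats 1, 2 and 3, of lowest prepulse inhibition, and at 11.14, 11.06 and 11.02 in rats 4, 8 and 5, of highest. Rats 6 and 7, of middle scores, stood at 11.21 and 11.01, and rat 7 was the lowest of all. The 4 other Rgs17 probe sets had -0.14, -0.07, -0.05 and -0.0042. Rgs10 had 0.08 ± 0.06 (limma p = 0.170) and Rgs7 -0.05 ± 0.04 (limma p = 0.189), which were 0.11 and -0.02 after quantile normalization. Slopes were positive in 11 of 30 members, against 41.3% of all probe sets. After quantile normalization, which moved all probe sets, they were positive in 22 of 30 members, against 57.1% of all.

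**Figure D3:**
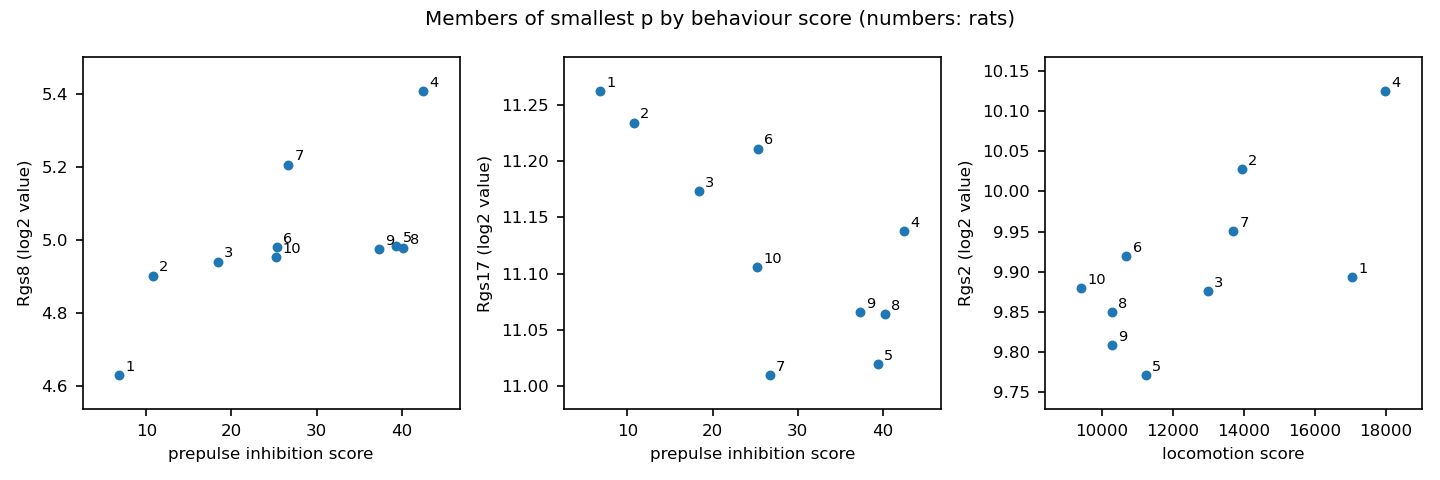
Each point is a rat, numbered. The panels show Rgs8 and Rgs17 (log2 value) against the prepulse inhibition score and Rgs2 against the locomotion score, in units the labels do not state. Rgs8 has rats 1 and 4 at its ends with 8 rats between 4.90 and 5.21, while Rgs17 lies at 11.17 or above in rats 1, 2 and 3, of lowest score, with rat 6 (11.21) and rat 7 (11.01) apart at middle scores.

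For the plus maze score, given for 7 rats, 1 of 30 members (3.33%) had an unadjusted p under 0.05, against 6.95% of all probe sets. Gng10 had -0.10 ± 0.04 (SE, n = 7; limma adjusted p = 0.685), which was 0.0155 without rat 5, whose score of 60.3 lay far above the next, 20.2. Gnaz had the smallest p on the positive side, at 0.04 ± 0.05. Slopes were positive in 11 of 30 members, against 39.2% of all probe sets. After quantile normalization they were positive in 16, against 48.7% of all, and with arrays centred on their medians in 4, against 26% of all.

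Markers of other cells and states differed between these rats, and the members were set against 4 marker scores, each the mean centred log2 value of a list that held no member. These scores and the members come from the same arrays. The myelin score, from 12 of 13 listed genes, ran from -0.62 in rat 3 to 0.48 in rat 7, and its genes spanned 1.50-fold (Mbp) to 2.68-fold (Ugt8). Gna12 and Rgs10 passed the threshold along it, which was 2 of 30 members (6.67%), against 2.15% of all probe sets (162 with positive and 172 with negative slopes). Gna12 had 0.18 ± 0.03 (SE, n = 10; limma p = 0.000281, adjusted p = 0.0252), or 1.13-fold for each SD of the score. Rgs10, an R12 regulator that microglia and neurons use, had 0.16 ± 0.04 (limma p = 0.000975, adjusted p = 0.0466), or 1.12-fold.

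Gna12 was highest in rats 7, 6 and 10, at 11.10, 11.05 and 11.02 log2, which had 3 of the 4 highest myelin scores, and lowest in rats 3 and 9, at 10.52 and 10.56. Its other probe set, with a mean of 4.31 log2 near the filter level of 3.985, had 0.18 (limma p = 0.0120, adjusted p = 0.162). The call of Gna12 was lost without rat 2, 3, 7 or 10 (adjusted p = 0.0571, 0.0907, 0.0935 and 0.0562). The call of Rgs10 was lost in each of the 10 fits that left out 1 rat (slopes of 0.11 to 0.18, adjusted p of 0.0538 to 0.142). Without rats 3 and 7, the farthest from the median, the slopes were 0.13 for Gna12 (adjusted p = 0.233) and 0.08 for Rgs10 (adjusted p = 0.333). Gnb2, Gng5 and Rgs8 also had an unadjusted p under 0.05, with 0.10 ± 0.03, 0.09 ± 0.03 and 0.12 ± 0.05. That made 5 of 30 members (16.7%), all positive, against 16.3% of all probe sets in either direction and 9.27% in the positive one. A second Gnb2 probe set had 0.04 on the myelin score (limma p = 0.115). Slopes were positive in 22 of 30 members (median 0.03), against 60.3% of all probe sets (median 0.01).

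Other scores moved with the myelin score. The microglia score, from 6 of 10 listed genes, ran from -0.23 in rat 3 to 0.20 in rat 7, and the astrocyte score, from all 8 listed genes, from -0.21 in rat 3 to 0.28 in rat 6. On the microglia score Gna12 had 0.16 ± 0.04 (limma adjusted p = 0.0879) and Rgs10 0.14 ± 0.04 (limma adjusted p = 0.161), in fits added after the data were seen. No member passed along the microglia score by limma (0 of 30, against 0.541% of all probe sets), while 7 of 30 (23.3%), all positive, had an unadjusted p under 0.05, against 16.4% of all probe sets and 12.1% in the positive direction. Slopes on it were positive in 26 of 30 members, against 65.7% of all probe sets. On the astrocyte score 0 of 30 passed, against 0.135% of all probe sets, and Gng12 came closest at 0.21 ± 0.04 (limma adjusted p = 0.0533). A second Gng12 probe set had 0.06 on that score (limma p = 0.268). There 6 of 30 members (20%), all positive, had an unadjusted p under 0.05, against 14.5% and, in the positive direction, 13.2%. Slopes were positive in 28 of 30 members, against 70.7% of all probe sets. With the microglia score beside the myelin score in the model, the myelin slopes were 0.14 for Gna12 (limma adjusted p = 0.570) and 0.17 for Rgs10 (limma adjusted p = 0.561). With the striatal score in the model the myelin slopes were 0.21 (limma adjusted p = 0.326) and 0.10 (limma adjusted p = 0.71). The part of these other cells in the slopes of Gna12 and Rgs10 was not tested further.

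**Figure D4:**
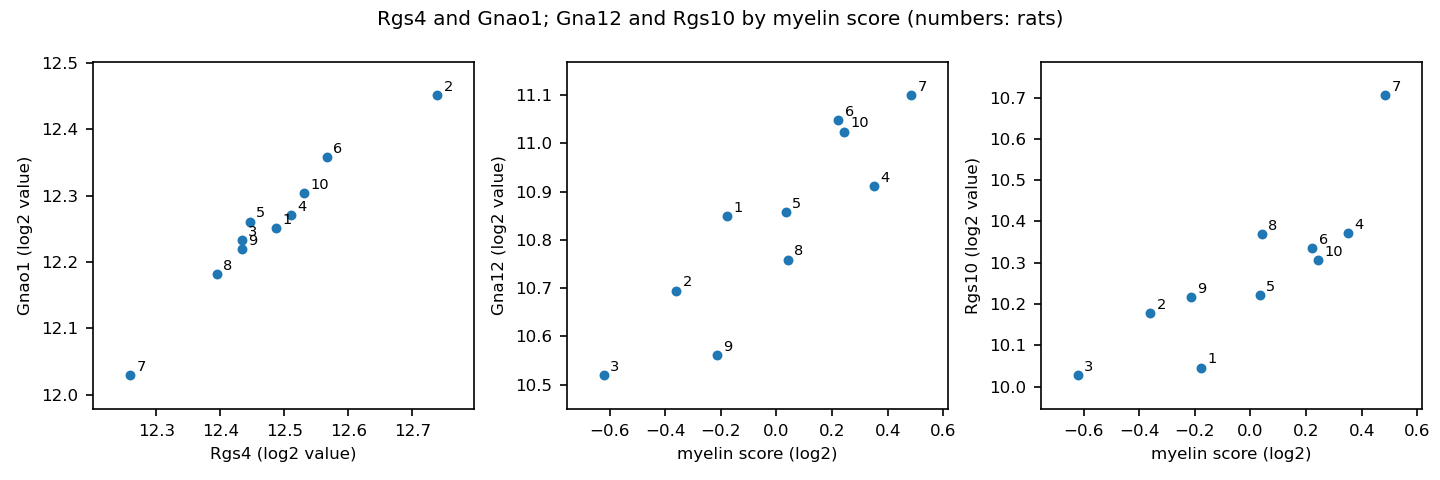
Each point is a rat, numbered, with log2 values on the vertical axes. The left panel sets Gnao1 against Rgs4 (r = 0.98), and the others set Gna12 and Rgs10 against the myelin score (mean centred log2 value of 12 genes). Rat 7 is lowest in the left panel and highest in both others.

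The striatal score rested on Drd1, Drd2, Penk, Pdyn, Ppp1r1b, Rarb and Pde10a and ran from -0.74 in rat 2 to 1.64 in rat 7. No member passed the threshold along it by limma (0 of 30, against 1.60% of all probe sets). At an unadjusted p under 0.05 there were 3 of 30 members (10%), all positive, against 14.4% of all probe sets and 5.81% in the positive direction. Positive slopes numbered 12 of 30, against 52.1% of all probe sets. Rgs10 came closest, with 0.16 ± 0.04 (SE, n = 10; limma p = 0.00129, adjusted p = 0.0627), then Rgs8 with 0.15 ± 0.05 (limma adjusted p = 0.146) and Gna12 with 0.13 ± 0.05 (limma adjusted p = 0.265). After quantile normalization Rgs10 had 0.18 (limma adjusted p = 0.0433). Without rats 4 and 7, of highest score, Rgs10 and Rgs8 had 0.08 and 0.04. On the negative side stood Gnao1 at -0.06 ± 0.03 (limma adjusted p = 0.419), Rgs17 at -0.05 ± 0.03 and Rgs4 at -0.06 ± 0.04.

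Other genes of the pathway were set against the same score. Of 20 listed genes past the filter, 4 passed the threshold, all positive, against 1.60% of all probe sets. These were Gng7 at 0.78 ± 0.07 (limma adjusted p = 0.000939), a gamma gene of striatal neurons, and Rasd2 at 0.38 ± 0.04 (limma adjusted p = 0.000954), a Ras-like gene of the striatum. The others were Gnal at 0.33 ± 0.05 (limma adjusted p = 0.0143), which encodes the Golf alpha subunit, and Rgs9 at 0.27 ± 0.05 (limma adjusted p = 0.0362), an R7 regulator of striatal neurons. The rule had left Gng7 and Rgs9 out of the members. The list was chosen with earlier results of these data known, and its values and the score come from the same arrays. That genes of the striatum rose with a striatal score is thus given as a description and not as independent evidence. All 4 kept a positive slope and passed after quantile normalization and with arrays centred on their medians. After quantile normalization 6 of the 20 passed, against 282 of all 15521 probe sets. The others were Gpsm1 (0.12, limma adjusted p = 0.0425) and Kcnj6, whose slope was negative (-0.15, limma adjusted p = 0.046). Without rat 7 Gng7 and Rasd2 passed (0.61 and 0.29), while Gnal (0.23, adjusted p = 0.121) and Rgs9 (0.10, adjusted p = 0.149) did not, and without rats 4 and 7 none of the 20 passed (0.51 for Gng7, adjusted p = 0.402). Along the myelin score 2 of the 20 passed, Gng7 (0.75 ± 0.10) and Rasd2 (0.34 ± 0.07), against 2.15% of all probe sets. Both calls were lost without rats 3 and 7 (adjusted p = 0.0882 and 0.157), and that of Rasd2 without rat 7 (adjusted p = 0.119). For the behaviour scores 0 of 20 passed by limma, where 0% of all probe sets passed for each. An unadjusted p under 0.05 was found for 1, Rgs5, a pericyte gene, with -0.42 ± 0.18 for startle (limma p = 0.0429). Of all probe sets 5.59% had such a p for startle.

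**Figure D5:**
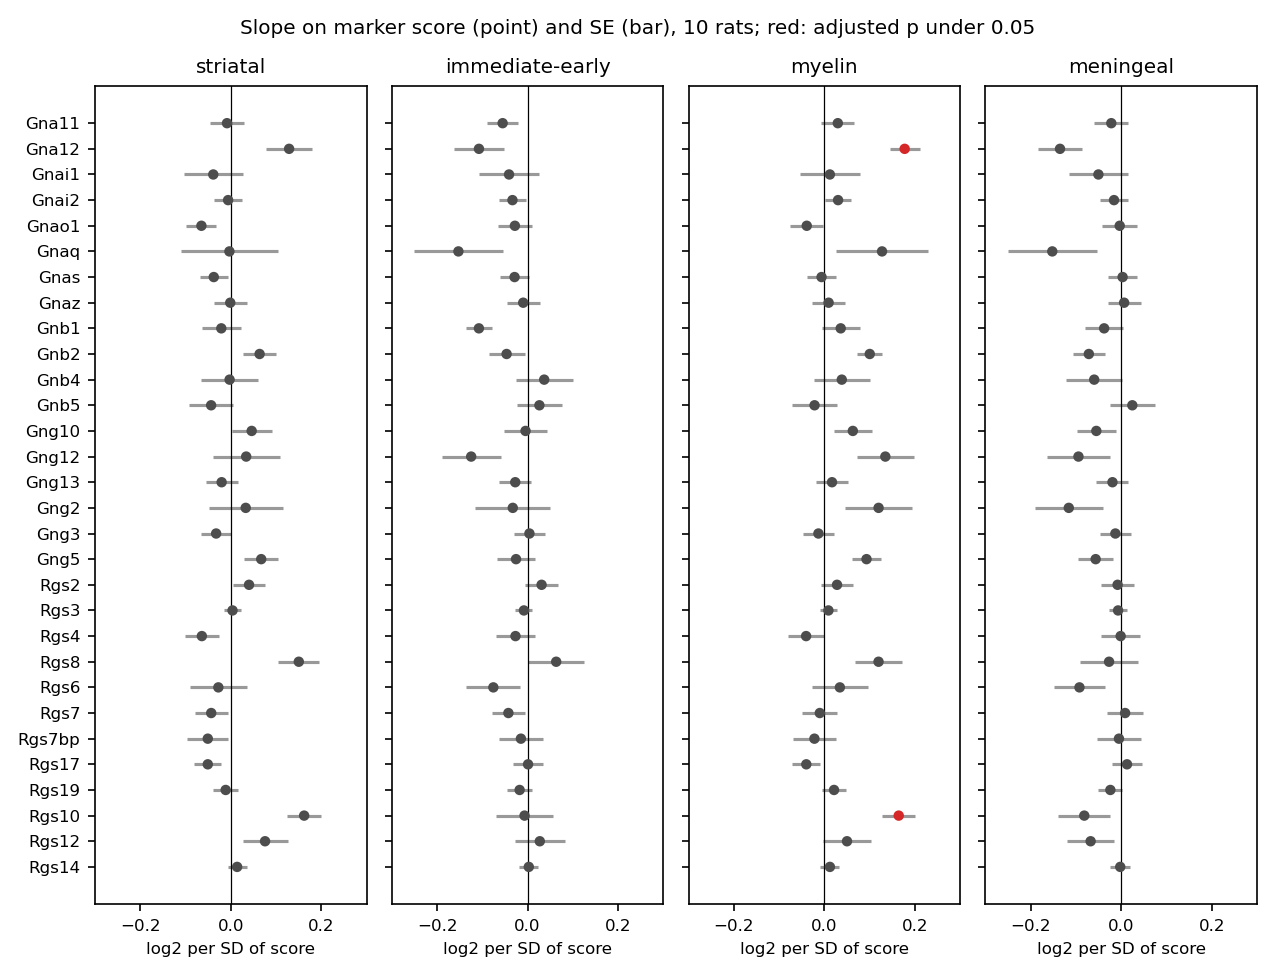
Points are slopes in log2 per SD of the marker score and bars are 1 SE from limma, n = 10 rats, for 30 members (rows) and 4 marker scores (panels). Red points, Gna12 and Rgs10 in the myelin panel, had an adjusted p under 0.05.

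The immediate-early score, from 9 of 11 listed activity-induced genes, ran from -1.06 in rat 10 to 0.94 in rat 3. No member passed by limma (0 of 30, against 0.0322% of all probe sets), and 1 of 30 (3.33%) had an unadjusted p under 0.05, against 2.22%. Gnb1 had -0.11 ± 0.03 (SE, n = 10; limma p = 0.00343, adjusted p = 1.00), while its other probe sets had 0.14 and -0.04. Gna12 had -0.11 ± 0.06 (limma p = 0.0796). On the positive side stood Rgs8 at 0.06 ± 0.06 (limma p = 0.332) and Rgs2, which neuronal activity is known to induce, at 0.03 ± 0.04 (limma p = 0.410). Of the members, 8 had positive slopes, against 39% of all probe sets, and 11 after quantile normalization, against 46.3% of all.

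The meningeal score, from 8 of 10 listed fibroblast genes, ran from -0.84 in rat 8 to 1.25 in rat 9, with rat 3 next at 0.93. No member past the filter passed by limma (0 of 30, against 0.148% of all probe sets), and 1 of 30 (3.33%), Gna12, had an unadjusted p under 0.05, against 3.45%. Gna12 had -0.14 ± 0.05 (SE, n = 10; limma p = 0.0195, adjusted p = 0.999), which was -0.0021 without rats 3 and 9. Gnb2 had -0.07 ± 0.04 (limma p = 0.0724), and its other probe set -0.02 (limma p = 0.421). The positive slopes of smallest p were those of Gnb5 (0.02 ± 0.05) and Rgs17 (0.01 ± 0.03). Of the 30 members 5 had positive slopes, against 40% of all probe sets, and 9 after quantile normalization, against 44.7% of all. Gng11, a gamma gene of non-neuronal cells, lay below the filter but spanned 2.03-fold, the most of all 39 members. It was at 4.11 log2 in rat 9 and 3.83 in rat 3, against 3.09 to 3.54 in the 8 others. In a fit on all 31042 probe sets, where 0.058% passed, its slope on the meningeal score was 0.23 ± 0.04 (limma p = 0.000451, adjusted p = 0.378), and 0.08 without rats 3 and 9 (limma p = 0.165). Its other probe set spanned 1.06-fold.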

How the data were processed

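Expression was measured on Affymetrix arrays in the prefrontal cortex of 10 rats. The deposited values are log2 summaries per probe set, made with GCRMA under R 2.6.2 per the submitters' processing notes. GCRMA corrects background from probe sequence, normalises by quantiles and summarises probes, which compresses low values (version not given in the sources used here). Of 31042 probe sets (57 controls left out), 20826 had 1 annotated symbol, 436 several and 9780 none. The upper 50% by mean, 15521, went into limma 3.58.1 under R 4.3.3 (functions lmFit and eBayes, two-sided, Benjamini-Hochberg over all fitted) on each score scaled to an SD of 1, all rats forming 1 group. The fits were tested on simulated data. Pair correlations used 1e+05 permutations.

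Members, marker lists and tests were chosen with earlier results of these data known. By rule, the text names the 2 members of smallest p in each direction per behaviour (1 for the plus maze), those past the threshold or else the same 2 per marker score, the 8 of largest span and a fixed panel. The panel included Rgs16, which lay below the filter. Alternatives were quantile normalization, median centring, other filters, ranks, covariates and leaving out rats. The number of arrays limits the precision. The labels name separate animals, and no batch label was given.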

Additional observations from a re-analysis of the deposited data

Results flagged for a closer look

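In 39 sets of values (30 members and 9 scores), 4 had a rat whose gap to its neighbour was large for the range of the set, a test that chance meets in about 1 of 20 sets. Rgs10 stood at 10.7 log2 in rat 7, against 10.37 in the next rat. Rgs14, which varied little otherwise, stood at 8.716 log2 in rat 7, against 8.648 in the next. Rgs19 stood at 4.371 log2 in rat 6, against 4.203 in the next, near the filter level of 3.985. The plus maze score was 60.29 in rat 5, against 20.2 in the next of 7 rats.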

How the results depend on the processing

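No paired analysis was possible because the labels give a single array and condition for any rat. Members past the threshold stayed at 0 for the 5 behaviour scores and for the immediate-early and meningeal scores in every alternative run. For the striatal score the count of 0 became 1 (Rgs10) after quantile normalization and with the upper 25% of probe sets, and ran from 0 to 1 when 1 rat was left out. For the myelin score the count of 2 became 3 after quantile normalization, 1 with no filter, and 0 without the 2 farthest rats and with the level of unnamed probe sets, the striatal, the microglia or the astrocyte score as a covariate, the last 3 chosen after seeing the data. It ran from 0 to 1 when 1 rat was left out, and a fit on fewer rats has less precision. Over all probe sets the striatal count of 249 was 70 with no filter, 114 with ranks, 2 without the 2 farthest rats, 18 with the unnamed level as covariate, and 31 (without rat 7) to 364 when 1 rat was left out. The immediate-early count of 5 was 0 with no filter or ranks, 3 without the 2 farthest rats, 9 with the unnamed level, and 0 to 4 when 1 rat was left out. The myelin count of 334 was 130 with no filter, 519 with median centring (38.3% positive, against 48.5%), 216 with the upper 25%, 15 without the 2 farthest rats, 81 with the unnamed level, and 16, 1 and 78 with the striatal, microglia and astrocyte covariates. It was 93 (without rat 7) to 378 when 1 rat was left out. The striatal calls were 38.6% positive, and 48.9% after quantile normalization. The meningeal count of 23 was 8 with the upper 25%, 3 with ranks, 1 without the 2 farthest rats and 4 (without rat 9) to 23 when 1 rat was left out. Of 604 recomputed slopes of named members, 593 kept their sign. Those that turned were Rgs8 on startle without rat 1 (-0.00615, up to 0.111 without another rat), without the 2 farthest rats (-0.0595) and with 4 scores in 1 model (-0.00317), and Gnb1 on locomotion with 4 scores (0.0464) and at its other probe sets (0.129 and 0.0203). Also turned were Gng10 on the plus maze without rat 5 (0.0155, down to -0.116 without another), Gnb1 on the immediate-early score at another probe set (0.14), Gnb5 on the meningeal score without rats 5 or 9 (-0.00815 and -0.014, up to 0.0618 without another), and Rgs17 on it at another probe set (-0.0383). The cause was not tested. Of the 5 gene pairs 1 passed, Rgs4 and Gnao1, in all 3 settings.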

Other observations

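Probe sets of the same gene varied by different amounts. Of the 3 Gnas probe sets, 2 spanned 1.17-fold and 1.21-fold, while the third spanned 3.06-fold and had a slope of -0.29 on the myelin score (limma p = 0.0262) and -0.25 on prepulse inhibition (limma p = 0.0660). The Gnas locus is known for several promoters and imprinted transcripts, and which transcript each probe set reads was not analysed here. The 5 Rgs17 probe sets all had negative slopes with startle and with prepulse inhibition, where 37.7% and 41.3% of all probe sets had positive ones. The smallest in size were -0.02 for startle and -0.0042 for prepulse inhibition. These 5 probe sets of the same gene spanned from 1.18-fold to 2.23-fold. The 3 Gnb1 probe sets spanned 1.32-fold, 1.60-fold and 1.73-fold. A second Gnaz probe set spanned 1.66-fold, against 1.22-fold for the first. These genes were chosen after their values were seen.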
